A study of Mus musculus with 10 samples.

Results

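Expression of the dystrophin-glycoprotein complex was examined in C2C12 cells after knockdown of *Fndc1*. The 8 genes described here, *Dmd*, *Utrn*, *Dag1*, *Sgca*, *Sgcb*, *Sgcd*, *Dtna* and *Sspn*, were taken by symbol, a rule that uses no measured value, from 55359 genes in the deposited table. The choice of these genes was made with earlier results of these data known. C2C12 is a mouse myoblast line that fuses into myotubes when serum is reduced. RNA-sequencing covered 5 libraries with knockdown of *Fndc1* by siRNA (si-*Fndc1*), and another 5 served as controls with a scrambled siRNA (si-Control). Both siRNAs were given at 100 nM, and the labels place all 10 libraries at day 4 of differentiation in horse serum, whereas the design text of the series gives a harvest counted in hours from transfection. The labels do not say whether libraries of a group came from separate cultures, so p-values measure the spread between these libraries, which may be technical. All cells were of this 1 immortalized line, grown without nerve, and the labels name no second siRNA against *Fndc1*.

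The dystrophin-glycoprotein complex ties the actin cytoskeleton of a muscle fiber to the laminin of its basement membrane. Dystrophin, or its paralog utrophin, binds actin inside the cell and β-dystroglycan at the membrane, and α-dystroglycan binds laminin outside, provided that its sugar chains have been built by a series of dedicated enzymes. The sarcoglycans and sarcospan form a subcomplex in the membrane that steadies this link, and dystrobrevins and syntrophins attach to dystrophin from the inside. Loss of dystrophin causes Duchenne muscular dystrophy, loss of single sarcoglycans causes limb-girdle dystrophies, and utrophin, which prevails in immature muscle and at the neuromuscular junction, can take the place of dystrophin in part.

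Windows at annotated starts of the members that differed between the groups, and of *Dmd*, are shown so that their sequence can be read beside the expression values. They were taken from RefSeq on the mouse build GRCm38.p6, each from 250 bases before to 50 after an annotated start, in the direction of transcription. Of the 8 members, 7 were matched. Letters in capitals mark matches on either strand, and positions are counted from the start, so that bases before it are negative. The 5 motifs were chosen after the files had been seen, and which of these starts the cells used was not measured.
*Dmd*, upstream start, chrX:82948620-82948919, + strand: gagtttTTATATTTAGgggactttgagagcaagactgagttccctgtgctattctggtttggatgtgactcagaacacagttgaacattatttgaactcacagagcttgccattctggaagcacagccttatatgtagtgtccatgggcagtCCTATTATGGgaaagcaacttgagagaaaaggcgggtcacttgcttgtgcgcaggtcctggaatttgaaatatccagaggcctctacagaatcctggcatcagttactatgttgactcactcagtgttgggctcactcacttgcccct
*Dmd*, downstream start, chrX:85048045-85048344, + strand: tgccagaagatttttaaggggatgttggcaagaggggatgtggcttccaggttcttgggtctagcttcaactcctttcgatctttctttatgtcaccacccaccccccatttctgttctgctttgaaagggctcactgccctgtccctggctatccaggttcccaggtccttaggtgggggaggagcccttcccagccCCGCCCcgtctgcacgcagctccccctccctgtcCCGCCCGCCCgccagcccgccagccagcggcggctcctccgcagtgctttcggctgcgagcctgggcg
*Utrn*, chr10:12861686-12861985, − strand: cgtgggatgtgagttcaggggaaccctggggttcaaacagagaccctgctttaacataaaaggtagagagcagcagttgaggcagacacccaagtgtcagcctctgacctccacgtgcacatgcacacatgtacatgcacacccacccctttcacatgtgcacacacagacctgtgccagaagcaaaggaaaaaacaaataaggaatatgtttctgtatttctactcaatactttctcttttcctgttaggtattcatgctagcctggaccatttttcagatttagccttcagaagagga
*Sgcb*, chr5:73647688-73647987, − strand: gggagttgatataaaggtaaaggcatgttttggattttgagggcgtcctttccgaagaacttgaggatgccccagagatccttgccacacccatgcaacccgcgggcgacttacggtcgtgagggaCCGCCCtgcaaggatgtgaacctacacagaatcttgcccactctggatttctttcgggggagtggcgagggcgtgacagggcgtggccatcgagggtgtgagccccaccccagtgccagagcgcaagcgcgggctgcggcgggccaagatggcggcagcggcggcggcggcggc
*Sspn*, upstream start, chr6:145931623-145931922, + strand: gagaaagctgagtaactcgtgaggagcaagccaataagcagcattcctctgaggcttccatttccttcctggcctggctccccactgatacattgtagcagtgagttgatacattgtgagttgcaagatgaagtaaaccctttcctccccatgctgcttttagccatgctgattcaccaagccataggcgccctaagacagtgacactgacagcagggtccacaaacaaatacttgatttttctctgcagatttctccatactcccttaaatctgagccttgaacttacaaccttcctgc
*Sspn*, downstream start, chr6:145933872-145934171, + strand: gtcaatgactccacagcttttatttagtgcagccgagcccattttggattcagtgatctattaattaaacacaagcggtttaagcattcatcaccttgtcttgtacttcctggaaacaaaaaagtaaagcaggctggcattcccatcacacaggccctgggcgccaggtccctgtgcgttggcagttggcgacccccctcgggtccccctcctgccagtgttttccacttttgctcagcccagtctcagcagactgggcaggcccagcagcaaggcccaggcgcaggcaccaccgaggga

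Both *Dmd* windows differed in composition and in their matches. The upstream window (45.7% G+C) held a MEF2 motif at -244 and a CArG box at -98, which are sequences that muscle genes are known to use and which occurred in 3.19% and 1.63% of 32851 promoter windows of the same length. The downstream window (62.7% G+C) held neither, and instead held the GC box GGGCGG at -52, -18 and -14, the last of which overlaps its neighbour. GGGCGG was present in 35.7% of all windows, among them that of *Sgcb* at -124. No match was found in the windows of *Utrn* and *Sspn*. The bases directly before the *Utrn* start and the upstream *Sspn* start are mostly C and T and end in AG, as at the end of an intron. Whether these windows hold a promoter was not tested, so the missing matches describe the printed windows only. The E-box CAGCTG (16.3% of all windows) and the ETS core CCGGAA (14.9%) were in none of the windows printed above. A match is a description of the letters and not a binding site, and the RNA libraries hold no measurement of binding.

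The knockdown was first read from its target. *Fndc1* had 26.7, 24.7, 28.7, 29.6 and 29.2 FPKM (reads scaled by transcript length and library size, as deposited) in si-Control 1 to 5, and 20.4, 23.5, 20.8, 21.1 and 18.7 FPKM in si-*Fndc1* 1 to 5. All 5 knockdown libraries lay below all control libraries, and *Fndc1* mRNA fell from 27.8 ± 2.04 to 20.9 ± 1.70 FPKM (SD, n = 5; edgeR log2 fold change -0.40, adjusted p = 0.000934). With an offset for GC content and length, described further on, the log2 fold change was -0.22 (-0.33 to -0.11; edgeR adjusted p = 0.0113). Control libraries held 66771605 to 75995168 counts, and knockdown libraries 56332844 to 72839369. They carried markers of differentiated muscle: over the 10 libraries the muscle transcription factor *Myog* ranged from 216 to 266 FPKM, the intermediate filament gene *Des* from 569 to 650 FPKM and the actin gene *Acta1* from 1716 to 2175 FPKM.

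Transcripts typical of hepatocytes stood apart between the groups. Of 14 such genes listed, 13 were tested and 13 were higher in si-*Fndc1* (median fitted log2 fold change 5.86, a value that depends on how near-zero control counts are treated), and their summed level was 0.488 to 15.5 CPM (counts scaled to library size) in the control libraries and 103 to 366 in the knockdown libraries. Except for *Alb*, those tested averaged less than 0.5 FPKM in the control libraries. They reached the filter, a mean of 0.5 FPKM over the 10 libraries, only through the knockdown libraries. The direction of these genes was therefore largely fixed by that filter. The smallest p-values among them were those of *Ambp*, *Apoa2*, *Ahsg* and *Apoa1*, which encode plasma proteins. *Alb*, the albumin gene, was without counts in the lowest control library and had 492 counts in the highest. In the knockdown libraries it had 1763 to 11579 counts. All 14 had counts in at least 1 library. Of 5 adipocyte transcripts, 4 had no count in any library (*Adipoq*, *Plin1*, *Cfd* and *Lep*) and none was tested, and of 5 blood cell transcripts, 1 was tested and did not pass, while *Ptprc* had no count and the globin gene *Hbb-bs* was called without a filter. In bulk RNA a change in the share of a cell type and a change of RNA per cell cannot be told apart. All cells were of 1 myoblast line, and whether the liver transcripts came from these cells or from elsewhere was not tested. The part of the liver transcripts in the differences of the members was not tested either.

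The fold changes also moved with base composition and, less so, with length. Across 11185 tested genes with known composition, the log2 fold change correlated with transcript GC content (Spearman's rho = -0.523, a description across genes that share the same 10 libraries), so that GC-rich transcripts tended to be lower in si-*Fndc1*. The median log2 fold change of all tested genes was 0.00. With transcript length, as implied by counts and FPKM, rho was -0.196. With an offset for GC content and length in every library these correlations were -0.01 and 0.03. Of these 11185 genes, 2530 (22.6%) were then called in place of 4138. *Utrn* and *Dtna* had implied lengths of 19025 and 18836 bases. The parts of GC content and of length in what the offset changed were not separated. The transcripts of the members had GC contents of 38.7% (*Sgcd*), 41.5% (*Dmd*), 43.3% (*Sgcb*), 45.8% (*Sspn*), 46.3% (*Dtna*), 47.9% (*Utrn*), 54.7% (*Dag1*) and 56.7% (*Sgca*).

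At the level of mRNA the members spanned a wide range with a fixed order. In control cells *Dag1* was the most abundant at 91.1 FPKM, followed by *Sgcb* (37.2), *Sgca* (25.9), *Utrn* (18.0), *Sspn* (7.11), *Dtna* (4.29), *Sgcd* (0.771) and *Dmd* (0.262). The lowest library of each gene lay above the highest library of the next in the order, both in si-Control and in si-*Fndc1*, so that no neighbours overlapped. The closest neighbours were *Sgca* and *Utrn*, with a 1.43-fold difference between their control means, and *Sgcb* and *Sgca*, with 1.44-fold. FPKM divides by the length of all transcripts of a gene, which the table implies to be 26496 bases for *Dmd* and 1930 bases for *Sgca*, so that a gene of which a short isoform is made is listed too low.

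**Figure D1:**
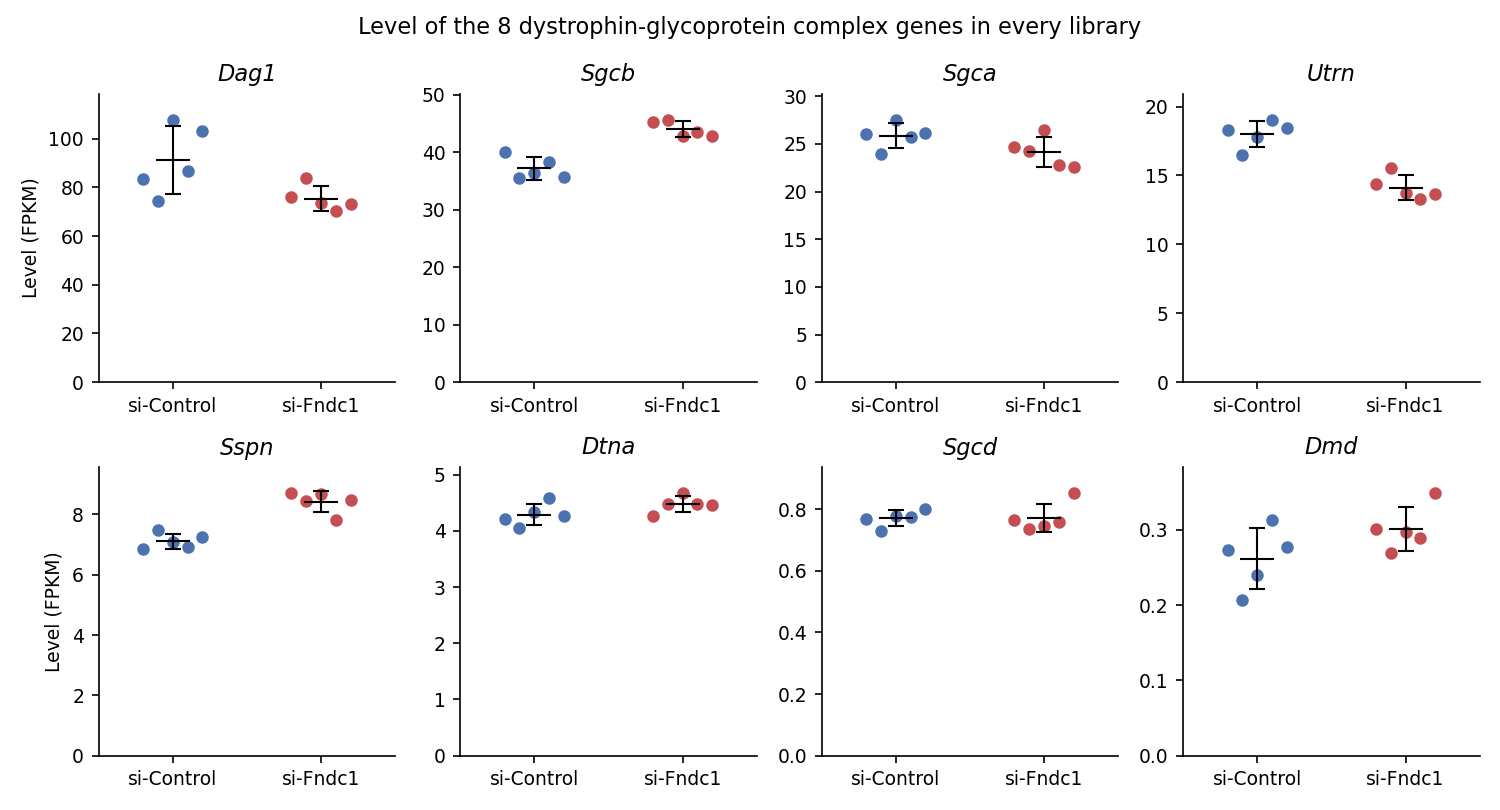
Level of each member in every library, in FPKM on axes that start at 0, with 5 si-Control libraries (blue) and 5 si-*Fndc1* libraries (red) from replicate 1 at the left to 5 at the right of each group. Horizontal lines are means and bars are SD (n = 5). *Sgcb*, *Sspn* and *Utrn* separate the groups without overlap, *Dag1* spreads from 74.3 to 107.8 FPKM in control cells, and *Dmd* stays below 0.4 FPKM.

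Of the 8 members, 7 reached a mean of 0.5 FPKM and entered the test across 13548 genes (quasi-likelihood test of edgeR, p-values adjusted after Benjamini and Hochberg), and 3 passed an adjusted p of 0.05, *Utrn* downward and *Sgcb* and *Sspn* upward. Across all tested genes 34.4% passed, 17.3% upward and 17.2% downward, so that the members' share of 42.9% stands near the background and is no result about the complex. The same 3 members had normalized counts that did not overlap between the groups, against 25.1% of all tested genes. *Dmd* was below the filter and was read from the fit without a filter, in which 14.4% of 28952 genes passed.

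*Utrn*, which encodes utrophin, fell in si-*Fndc1* cells. It lies at chr10:12257934-12745109 on the − strand of GRCm39, the build named in the submitters' processing notes. *Utrn* was 18.3, 16.5, 17.8, 19.0 and 18.5 FPKM in si-Control 1 to 5, and 14.4, 15.6, 13.7, 13.3 and 13.6 FPKM in si-*Fndc1* 1 to 5. Every knockdown library was below every control library, and the closest pair was si-*Fndc1* 2 and si-Control 2. The mean went from 18.0 ± 0.957 to 14.1 ± 0.912 FPKM (SD, n = 5), a ratio of 0.783 with a two-sided exact permutation p of 0.00794, the smallest that 5 against 5 libraries can give. In the fit across genes the log2 fold change was -0.34 ± 0.05 (SE; 95% interval -0.46 to -0.23; edgeR adjusted p = 0.000498). The value rests on 14568 to 26452 counts per library. With the GC content and length offset it was -0.20 (-0.26 to -0.14; edgeR adjusted p = 0.000485), smaller than without it by over 1.5 times on the log2 scale and with the same call. *Utrn* passed in each of 23 alternative settings, between -0.38 and -0.20.

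*Dmd*, which encodes dystrophin, did not pass the test. It spans chrX:81992476-84249747 on the + strand (GRCm39). *Dmd* was 0.274, 0.206, 0.239, 0.313 and 0.277 FPKM in si-Control 1 to 5 and 0.302, 0.269, 0.297, 0.290 and 0.349 FPKM in si-*Fndc1* 1 to 5. The groups overlapped, and si-*Fndc1* 5 was the single knockdown library above all controls. The means were 0.262 ± 0.0407 and 0.301 ± 0.0294 FPKM (SD, n = 5; two-sided exact permutation p = 0.135; p = 0.0476 without si-Control 4). Without a filter the log2 fold change was 0.21 ± 0.11 (SE; 95% interval -0.04 to 0.46; edgeR adjusted p = 0.261), an interval that leaves room for a rise of the size seen in *Sgcb* as well as for none. *Dmd* had 390 to 604 counts per library, far fewer than *Utrn*, and these counts are summed over all *Dmd* transcripts, which start at several promoters. With edgeR's count filter and the GC content and length offset the log2 fold change was 0.26 (0.03 to 0.50; edgeR adjusted p = 0.116).

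The ratio of the dystrophin to the utrophin transcript differed between the groups. The level of *Utrn* per length was 66.8, 80.0, 74.4, 60.8 and 66.6 times that of *Dmd* in si-Control 1 to 5, and 47.7, 57.9, 46.1, 45.8 and 39.1 times in si-*Fndc1* 1 to 5. All 5 knockdown libraries had a smaller excess of *Utrn* than any control library. As a log2 ratio of *Dmd* to *Utrn*, the mean was -6.12 ± 0.154 in si-Control and -5.55 ± 0.202 in si-*Fndc1* (SD, n = 5), a difference of 0.56 (two-sided exact permutation p = 0.00794, adjusted p = 0.0238 over 3 ratios). It was 0.50 to 0.64 when any 1 library was left out and 0.47 with the GC content and length trend removed from the counts. *Utrn* remained the far more abundant transcript per length in all 10 libraries.

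**Figure D2:**
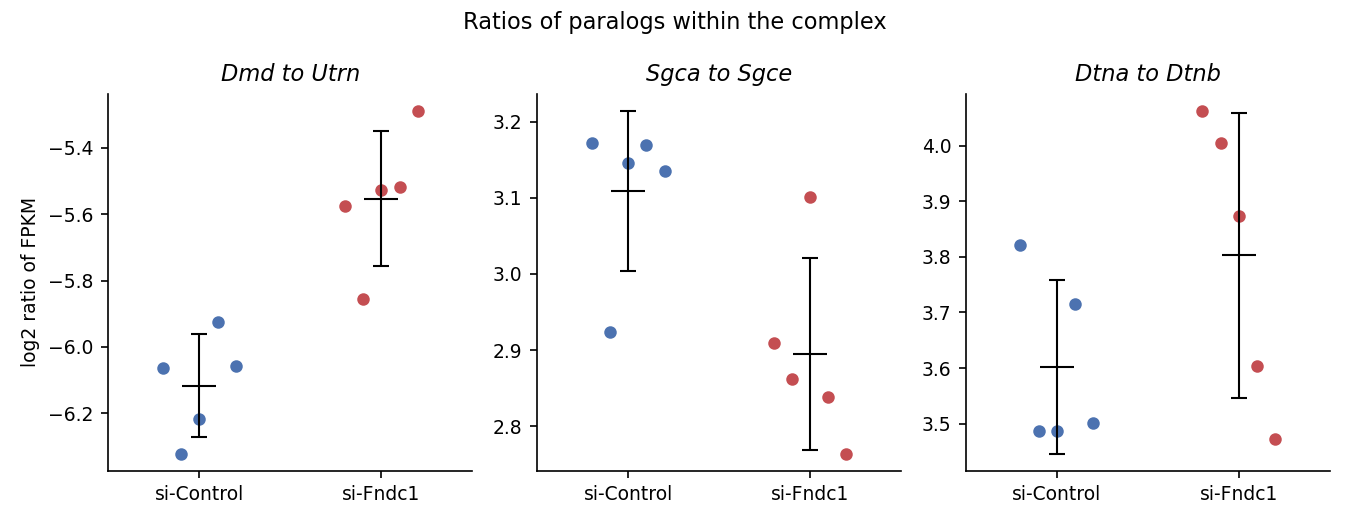
Log2 ratio of FPKM between paralogs of the complex in every library, for *Dmd* to *Utrn*, *Sgca* to *Sgce* and *Dtna* to *Dtnb*, with si-Control in blue, si-*Fndc1* in red, means as horizontal lines and SD as bars (n = 5). The vertical axes do not start at 0. The groups do not overlap for *Dmd* to *Utrn* (means -6.12 and -5.55), 4 of 5 knockdown libraries lie below the controls for *Sgca* to *Sgce*, and the groups overlap for *Dtna* to *Dtnb*.

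*Dag1*, whose single precursor is cut into α- and β-dystroglycan, was the most abundant member and did not pass the test. It lies at chr9:108081833-108141157 on the − strand (GRCm39). *Dag1* was 83.5, 74.3, 107.8, 86.9 and 103.3 FPKM in si-Control 1 to 5 and 76.2, 83.6, 73.4, 70.3 and 73.0 FPKM in si-*Fndc1* 1 to 5. The control libraries spread widely, and 3 of 5 knockdown libraries lay below all of them. The means were 91.1 ± 14.0 and 75.3 ± 5.11 FPKM (SD, n = 5), and the log2 fold change was -0.27 ± 0.10 (SE; 95% interval -0.48 to -0.06; edgeR adjusted p = 0.0507). The call turned on single libraries: adjusted p was 0.0115 without si-Control 2 and 0.0365 without si-*Fndc1* 2, whereas it was 0.115 without si-Control 5. Compared as FPKM the exact permutation p was 0.0397 (two-sided), and 0.0794 without any of si-Control 3, 4 or 5 or si-*Fndc1* 3, 4 or 5. With the GC content and length offset the log2 fold change was -0.11 (edgeR adjusted p = 0.402).

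Among the sarcoglycans, *Sgcb* rose, while *Sgca* and *Sgcd* did not pass the test. *Sgcb* encodes β-sarcoglycan, around which the tetrameric sarcoglycan core is assembled together with δ-sarcoglycan, and lies at chr5:73790092-73805133 on the − strand (GRCm39). It was 40.1, 35.5, 36.4, 38.2 and 35.8 FPKM in si-Control 1 to 5 and 45.3, 45.7, 42.9, 43.5 and 42.8 FPKM in si-*Fndc1* 1 to 5. Every knockdown library was above every control library, and the mean went from 37.2 ± 1.95 to 44.0 ± 1.36 FPKM (SD, n = 5; ratio 1.18; two-sided exact permutation p = 0.00794). The log2 fold change was 0.25 ± 0.04 (SE; 95% interval 0.16 to 0.34; edgeR adjusted p = 0.00075). With the GC content and length offset it was 0.08 (-0.02 to 0.18; edgeR adjusted p = 0.218), so that the call was lost.

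*Sgca* encodes α-sarcoglycan, a muscle-restricted subunit, and lies at chr11:94853617-94867153 on the − strand (GRCm39). It was 26.0, 23.9, 27.5, 25.7 and 26.1 FPKM in si-Control 1 to 5 and 24.7, 24.2, 26.4, 22.8 and 22.6 FPKM in si-*Fndc1* 1 to 5. The groups overlapped, with 2 of 5 knockdown libraries below all controls, and the log2 fold change was -0.09 (95% interval -0.21 to 0.03; edgeR adjusted p = 0.229). With the offset it was -0.08 (edgeR adjusted p = 0.354). *Sgce*, which encodes its paralog ε-sarcoglycan and is made in many tissues, went from 2.995 ± 0.132 to 3.24 ± 0.106 FPKM (SD, n = 5; log2 fold change 0.12; edgeR adjusted p = 0.0494), a call that was lost in 16 of 22 alternative settings. These included leaving out si-Control 1, 3, 4 or 5 or si-*Fndc1* 1, 2, 4 or 5, with adjusted p up to 0.112.

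The ratio of the α to the ε subunit was lower in si-*Fndc1*. *Sgca* per length was 9.01, 7.59, 8.85, 8.999 and 8.79 times *Sgce* in si-Control 1 to 5 and 7.51, 7.27, 8.58, 7.15 and 6.79 times in si-*Fndc1* 1 to 5. Apart from si-Control 2 and si-*Fndc1* 3, each of which lay nearer the other group, the libraries of the groups were separate. The log2 ratio was 3.11 ± 0.105 in si-Control and 2.89 ± 0.126 in si-*Fndc1* (SD, n = 5), a difference of -0.21 (two-sided exact permutation p = 0.0159, adjusted p = 0.0238 over 3 ratios), and -0.26 with the GC content and length trend removed.

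*Sgcd*, the gene of δ-sarcoglycan at chr11:46869612-47879796 on the − strand (GRCm39), was the least abundant tested member. It was 0.769, 0.731, 0.779, 0.775 and 0.802 FPKM in si-Control 1 to 5 and 0.765, 0.735, 0.746, 0.760 and 0.852 FPKM in si-*Fndc1* 1 to 5. Apart from si-*Fndc1* 5 the libraries of both groups shared 1 range, and the log2 fold change was 0.01 (95% interval -0.14 to 0.15; edgeR adjusted p = 0.931) on 440 to 537 counts per library. With the offset the direction turned to -0.17 (-0.31 to -0.04; edgeR adjusted p = 0.0699). In these cells *Sgcb* and *Sgca* were far above *Sgcd* in level per length.

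*Sspn*, which encodes sarcospan, a membrane protein with several spans that binds the sarcoglycans, rose in si-*Fndc1* cells. It lies at chr6:145877367-145910949 on the + strand (GRCm39). *Sspn* was 6.85, 7.47, 7.08, 6.92 and 7.24 FPKM in si-Control 1 to 5 and 8.70, 8.45, 8.67, 7.81 and 8.48 FPKM in si-*Fndc1* 1 to 5. All knockdown libraries lay above all control libraries, with si-*Fndc1* 4 the closest to them. The mean went from 7.11 ± 0.249 to 8.42 ± 0.358 FPKM (SD, n = 5; ratio 1.18; two-sided exact permutation p = 0.00794). The log2 fold change was 0.25 ± 0.04 (SE; 95% interval 0.16 to 0.34; edgeR adjusted p = 0.0011). With the GC content and length offset it was 0.16 (0.07 to 0.25; edgeR adjusted p = 0.0172), and *Sspn* passed in each of 23 alternative settings, between 0.16 and 0.28.

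*Dtna* encodes α-dystrobrevin, a cytoplasmic partner of dystrophin and of the syntrophins. It was 4.22, 4.06, 4.33, 4.58 and 4.26 FPKM in si-Control 1 to 5 and 4.26, 4.48, 4.67, 4.48 and 4.47 FPKM in si-*Fndc1* 1 to 5. The groups overlapped, and only si-*Fndc1* 3 was above all controls. The log2 fold change was 0.07 (95% interval -0.02 to 0.15; edgeR adjusted p = 0.204), and with the GC content and length offset it was 0.17 (0.08 to 0.27; edgeR adjusted p = 0.0172), so that the offset added a call. *Dtnb*, which encodes β-dystrobrevin, was below the filter at 0.354 ± 0.0343 and 0.325 ± 0.0612 FPKM (SD, n = 5). The log2 ratio of *Dtna* to *Dtnb* was 3.60 ± 0.156 in si-Control and 3.80 ± 0.256 in si-*Fndc1* (SD, n = 5), a difference of 0.20 that did not pass (two-sided exact permutation p = 0.175, adjusted p = 0.175 over 3 ratios), against 0.30 with the GC content and length trend removed (exact permutation p = 0.0397, not adjusted).

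**Figure D3:**
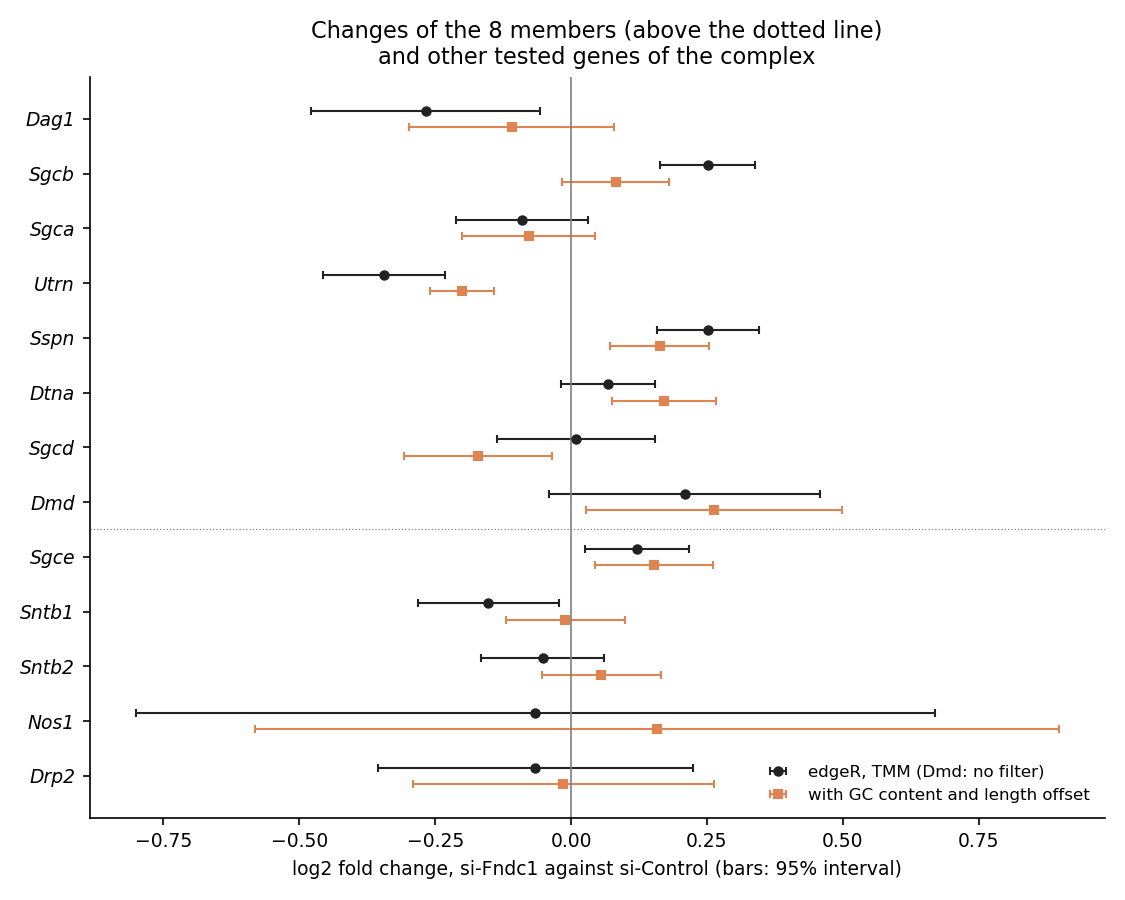
Log2 fold change of si-*Fndc1* against si-Control with its 95% interval, for the 8 members above the dotted line and 5 tested genes of the list of other complex genes below it, from edgeR with TMM normalization (black circles, *Dmd* from the fit without a filter) and with the GC content and length offset (orange squares, *Dmd* from the fit with edgeR's count filter). *Utrn* lies left of 0 and *Sspn* right of 0 in both fits, whereas the interval of *Sgcb* reaches 0 with the offset (-0.02 to 0.18).

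The other genes of the complex were read from a list of 11 sarcoglycans, dystrobrevins, syntrophins and associated proteins. Of these 7 were tested, 2 rose, *Sgce* (above) among them, none fell, and the median log2 fold change of those tested was -0.07. The share that passed is near the 34.4% of all tested genes. With the GC content and length offset 3 rose and none fell, in a fit where 22.6% of all genes covered passed. *Sgce* was then at 0.15 (edgeR adjusted p = 0.0468). *Sgcz* and *Sntg1* had no count in any library.

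Most enzymes that build the laminin-binding sugars of α-dystroglycan did not pass the test. Of 18 listed, 16 were tested, 3 rose and 2 fell, a share near the 34.4% of all tested genes that passed, and the median log2 fold change was -0.02. *Dolk*, the kinase that makes dolichol phosphate, the lipid carrier from which mannose is passed on, fell from 12.8 ± 0.613 to 9.87 ± 0.378 FPKM (SD, n = 5; log2 fold change -0.37; edgeR adjusted p = 0.000315), with all 5 knockdown libraries below the controls and a value of -0.37 with the offset as well. *Dpm3* (log2 fold change 0.26; edgeR adjusted p = 0.0187) and *Dpm2* (0.23; edgeR adjusted p = 0.0202), which encode small subunits of the synthase of dolichol phosphate mannose, rose. *Rxylt1*, a xylosyltransferase of the same sugar chain, rose by 0.21 on the log2 scale (edgeR adjusted p = 0.0171), and *Pomt2*, a subunit of the enzyme that attaches the first mannose, fell by 0.19 (edgeR adjusted p = 0.0249). With the offset *Dolk* alone of these 5 genes passed. *Dpm2* was then at 0.18 (edgeR adjusted p = 0.0626), *Dpm3* at 0.13 (0.206), *Rxylt1* at 0.07 (0.444) and *Pomt2* at -0.05 (0.505). With the offset 2 enzymes rose, among them the glycosyltransferase gene *Pomgnt1* by 0.11 (edgeR adjusted p = 0.0301), which was at -0.05 without it.

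The genes of the extracellular ligands of dystroglycan were lower in si-*Fndc1* in the fit without the offset. Of 9 listed, 7 were tested and 7 fell, with a median log2 fold change of -0.29, against 0.00 over all tested genes, and 5 of them did not overlap between the groups. Over all tested genes 34.4% passed, 17.2% downward, and 25.1% did not overlap. *Hspg2*, the gene of perlecan, fell from 173.9 ± 9.22 to 115.7 ± 7.76 FPKM (SD, n = 5; log2 fold change -0.58; edgeR adjusted p = 3.34e-05). The laminin chain genes *Lama5* (39.1 to 29.5 FPKM; log2 fold change -0.40) and *Lamb2* (37.8 to 30.3 FPKM; -0.31) and the agrin gene *Agrn* (5.94 to 4.82 FPKM; -0.29) fell as well, with edgeR adjusted p of 0.000183, 0.0004 and 0.00251. With the offset *Hspg2* was the single ligand gene that passed, at -0.15 (edgeR adjusted p = 0.00089), and the others, at -0.08 to 0.03, did not pass.

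**Figure D4:**
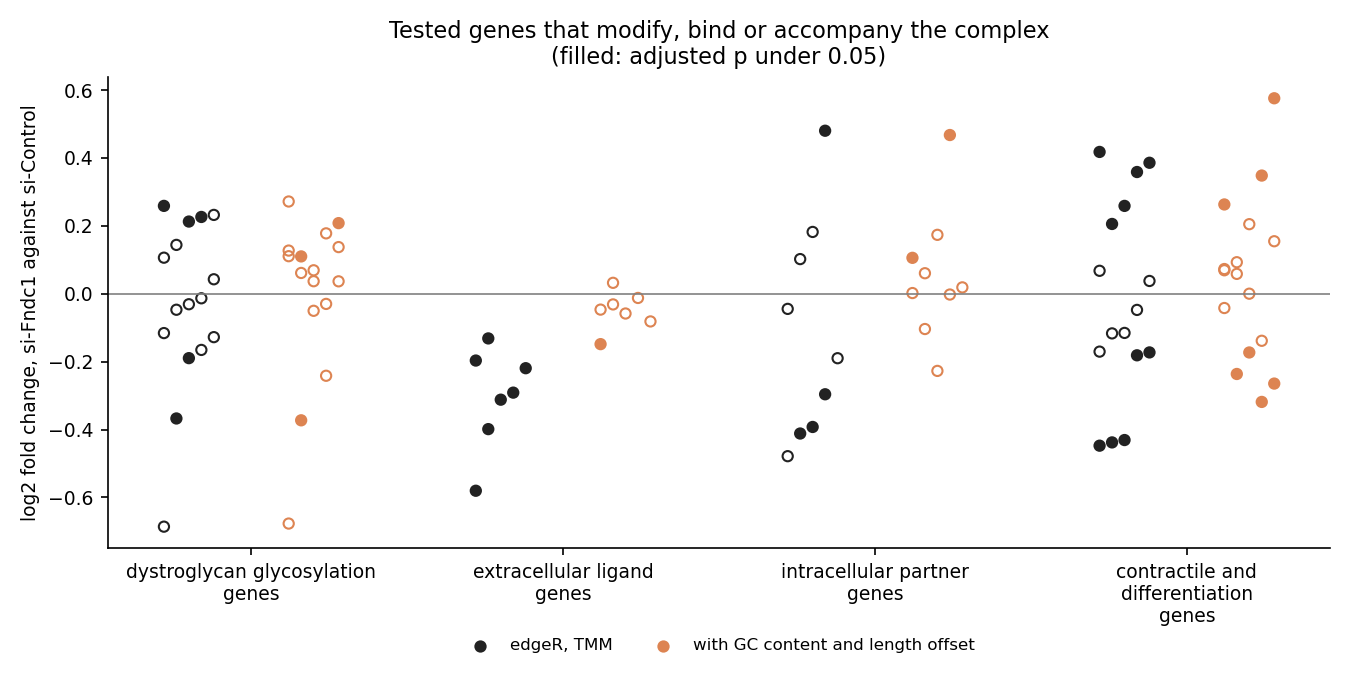
Log2 fold change of si-*Fndc1* against si-Control for each tested gene of 4 lists that modify, bind or accompany the complex, from edgeR with TMM normalization (black) and with the GC content and length offset (orange). Filled points passed an adjusted p of 0.05. The 7 ligand genes lie below 0 and are all filled without the offset, and 1 of them is filled with it, whereas the other lists hold genes in both directions in both fits.

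Genes whose proteins meet the complex from inside the cell were mixed. Of 11 listed, 9 were tested, 1 rose and 3 fell, with a median log2 fold change of -0.19. This share stands near the 34.4% of all tested genes that passed. With the offset 22.6% of the genes it covered passed. *Actg1*, the gene of the cytoplasmic γ-actin that dystrophin binds, rose from 299.7 ± 23.9 to 415.9 ± 28.1 FPKM (SD, n = 5; log2 fold change 0.48; edgeR adjusted p = 0.000256), and by 0.47 with the offset. *Flnc*, the gene of the sarcoglycan-binding filamin C, fell from 83.8 ± 4.87 to 62.7 ± 6.61 FPKM (SD, n = 5; log2 fold change -0.41; edgeR adjusted p = 0.00123). *Ank3*, which encodes ankyrin G (log2 fold change -0.30; edgeR adjusted p = 0.011), and *Scn4a*, which encodes the muscle sodium channel (-0.39; edgeR adjusted p = 0.0309), also fell. With the offset none of these 3 falls passed (*Flnc* -0.10, *Ank3* -0.00, *Scn4a* -0.23), and *Actg1* and *Des* rose, the latter by 0.11 (edgeR adjusted p = 0.0311) from -0.04 without it.

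The state of differentiation was read beside the complex from 16 contractile and differentiation genes. All 16 were tested, 5 rose and 5 fell, with a median log2 fold change of -0.08. For comparison, 17.3% of all tested genes passed upward and 17.2% downward, and 22.6% of the genes covered passed with the offset. *Mylpf*, the gene of a fast myosin light chain (1971 to 2619 FPKM; log2 fold change 0.42), *Ckm*, the muscle creatine kinase gene (66.3 to 86.2 FPKM; 0.39), and *Tnnt1*, a troponin T gene (110.7 to 141.2 FPKM; 0.36), rose, whereas *Casq2*, a calsequestrin gene (289.9 to 254.4 FPKM), fell by 0.18 on the log2 scale. *Myl1* (0.21) and the fusion gene *Mymk* (0.26) also rose, and the giant sarcomere genes *Ttn* (-0.45) and *Neb* (-0.44), the calcium release channel gene *Ryr1* (-0.43) and the fusion gene *Mymx* (-0.17) also fell. With the offset *Mylpf* (0.26), *Ckm* (0.58) and *Tnnt1* (0.35) rose, and *Casq2* (-0.32), *Neb* (-0.24), *Mymx* (-0.26) and *Myog* (-0.17, against -0.12 without it) fell. The others did not pass with it, at 0.21 for *Mymk*, 0.06 for *Myl1*, 0.00 for *Ryr1* and 0.07 for *Ttn*, both of which were below 0 without it. Of 5 genes of undifferentiated or dividing myoblasts, 5 were tested and none passed without the offset, whereas *Myf5* was lower with it (log2 fold change -0.21; edgeR adjusted p = 0.017) and at 0.12 without it. The part of the differentiation state in the changes of *Utrn*, *Sgcb* and *Sspn* was not tested.

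The genes whose levels followed the members most closely over the 10 libraries were ranked by the root mean square difference of log2 CPM, each gene centred on its own mean. For *Utrn* they were *Map1b* (0.0224), *Ubr4* (0.0286) and *Piezo1* (0.0310), against a spread of 0.188 of *Utrn* itself. For *Sgcb* they were *Sema3d* (0.0318), *Api5* (0.0328) and *Dhx36* (0.0355), against 0.138, and for *Sspn* they were *Tpp2* (0.0326), *Eno1* (0.0341) and *Erp44* (0.0397), against 0.135. *Dmd* had no such close neighbour among the genes compared, since the nearest, *Coq4*, *Gm5436* and *Tcaim*, differed from it by 0.10 against its own spread of 0.20. Only genes past the filter of 0.5 FPKM were compared, and *Dmd* itself was below it. *Dmd* had 390 to 604 counts per library, against 14568 to 26452 for *Utrn*, and the part of counting noise in its differences was not separated. The root mean square differences describe likeness over 10 libraries in 2 groups and carry no test.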

How the data were processed

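Poly(A) RNA of C2C12 cells had been sequenced in 10 libraries, 5 for each siRNA, grouped and numbered as their labels say. The authors deposited a table of raw counts per gene for 55359 genes, with 0 columns of values left without a library. The authors also deposited an FPKM value beside every count, with 0.0001 in place of 0. The sources differ on how these were made. The submitters' processing notes name GRCm39, cutadapt 1.9 and FastQC, the design text of the series names STAR and mm9, and the paper names TopHat, mm10, htseq-count and 4 libraries without saying which, so all 10 were used. Labels and methods also differ in transfection reagent and serum. Strand use in counting is not given in the sources used here. Genes that overlap a member carried at most 22.6 reads per library on average.

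For genes whose FPKM averaged 0.5 or more, counts went into the quasi-likelihood test of edgeR 4.0.16 after TMM scaling (R 4.3.3), with no term for the replicate number, and p-values were adjusted over all of these genes at a threshold of 0.05. Single levels and ratios were compared by two-sided exact permutation tests with scipy 1.17.1. The trend of log counts (0.5 added) with GC content and length was estimated per library by robust regression (MASS) on splines with 5 degrees of freedom, and served as an offset, for the 82.6% of tested genes with a GC content from NCBIM37 transcripts. The alternatives included DESeq2 1.42.0, limma 3.58.1 on log2(FPKM + 1) and log2(FPKM + 0.1), other scalings and filters, a replicate block and leaving out each library. edgeR's count filter, alone and with the offset, was added after the files had been seen, because *Dmd* lay below the FPKM filter.

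The text names the 8 members, *Fndc1*, the 4 genes with the smallest p-values among those past the test in every other list, the genes of the ratios, and the 3 genes nearest to *Dmd* and to each member past the test. *Alb*, *Hbb-bs*, *Pomt2*, *Pomgnt1*, *Des*, *Myl1*, *Mymk*, *Mymx*, *Ttn*, *Neb*, *Ryr1*, *Myf5*, the muscle markers and the genes without counts were named after their values had been seen. Some genes that this rule covers are not reported here. The members and lists were chosen with earlier results of these data known. The test was tried on simulated counts. All 20 pairs of libraries within a group differed beyond counting noise (41.5 to 77.6 times the chi-square that noise gives). These values are averages over genes, so they do not tell for which genes library spread exceeds counting noise.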

Additional observations from a re-analysis of the deposited data

Results flagged for a closer look

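In 70 groups of 5 libraries, from 35 genes and ratios, 3 had a library set apart from the rest by Dixon's criterion, which chance alone gives in about 1 group in 20. *Sgcd* was 0.852 FPKM in si-*Fndc1* 5, against 0.735 to 0.765 FPKM in the other knockdown libraries. *Sspn* was 7.81 FPKM in si-*Fndc1* 4, against 8.45 to 8.70 FPKM in the others, and was still above all control libraries. The log2 ratio of *Sgca* to *Sgce* was 2.92 in si-Control 2, against 3.14 to 3.17 in the other control libraries.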

How the results depend on the processing

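Of 8 members, 3 to 4 passed in each of 23 alternative settings. The genes called over the whole table numbered 2530 with the GC content and length offset, 1650 with the offset and a replicate block and 2611 with edgeR's count filter and the offset, in place of 4663 (4138 among the 11185 genes that the offset covered). DESeq2 called 5019, and leaving out a library 4000 to 4627. *Utrn* and *Sspn* passed in all 23. *Sgcb* lost its call and *Dtna* gained one in all 3 settings with the offset. *Dag1* gained one with a mean of at least 5 FPKM (adjusted p = 0.0415), DESeq2 (0.0175) and quantile-normalized limma (0.0413). *Sgcd* turned to a log2 fold change of -0.17 with the offset, alone, with the replicate block and with the count filter, of -0.0154 with quantile-normalized limma and of -0.00013 with limma on log2(FPKM + 0.1), and was -0.0245 to 0.0252 when a library was left out (its FPKM difference -0.0195 to 0.00963). *Agrn* was 0.0075 with the count filter and the offset. The log2 ratio of *Dtna* to *Dtnb* differed by 0.30 with the trend removed. Same-numbered libraries of the groups did not deviate together (correlations of -0.0553 to 0.0643, and 1 of 5 control libraries matched its own number best). With the number as a replicate block 3572 genes and 3 members passed. Over the 23 settings the genes passing in the other lists numbered 1 to 3 of the complex (in place of 2, with 1 in 14 settings), 2 to 6 of glycosylation (5), 1 to 7 of ligands (7), 1 to 6 of partners (4), 6 to 10 of contractile genes (10), 0 to 1 of undifferentiated myoblasts (0), 3 to 14 of hepatocytes (13, with 3 when a mean of 5 FPKM was required and fewer were tested) and 0 to 1 of blood cells (0). Of 521 alternative values for 23 genes named by the rule that are no members, 463 kept direction and call, 57 lost the call and 1, that of *Agrn*, turned. Genes named after their values had been seen were compared with the offset alone, under which *Ttn*, *Ryr1* (from -0.43 to 0.00), *Myf5*, *Des* and *Pomgnt1* turned. The causes of these shifts were not tested.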
